A study of Mus musculus with 9 samples.

Results

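Bcl2a1d, Fas, Pmaip1 and Tnfrsf10b are 4 mouse genes that set whether a cell survives or dies by apoptosis. Each has 1 row among the 964 rows of the authors' deposited table of significant changes, which is its only named row among the 31648 rows of the full value table. They were selected on the values described here, because that table lists rows that differed at least 2-fold between tumour-bearing and control mice, so their differences are given as a description and without a test. Expression arrays were run on CD11b+Gr1+ cells, the surface phenotype of neutrophils, inflammatory monocytes and their precursors, sorted by flow cytometry from spleen. The tumour-bearing group comprised 6 L2-Cre;p120f/f mice, analysed singly. The controls were healthy L2-Cre;p120+/f animals in 3 pools, each combining the cells of 3 mice. All animals therefore carried the L2-Cre transgene and at least 1 floxed p120 allele on a mixed C57BL/6x129 background. The L2 promoter is active in oral and oesophageal squamous epithelium, where Cre removes the floxed gene for p120-catenin, Ctnnd1. The age, limb and genotype fields of the same labels belong to another experiment by their content and contradict the titles, so no age is given. Tumour, genotype and pooling coincide with the groups and cannot be told apart.

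Apoptosis starts by either of 2 routes. In the mitochondrial route, proteins of the Bcl2 family compete: survival proteins such as the A1 protein encoded by Bcl2a1d and its relative Mcl1 hold back Bax and Bak1, and BH3-only proteins such as Noxa, encoded by Pmaip1, bind and neutralise survival proteins. In the receptor route, Fas and the TRAIL receptor encoded by Tnfrsf10b recruit the adaptor Fadd through their death domains and activate caspase 8. Neutrophils are short-lived cells in which A1 and Mcl1 are known as survival factors, and Fas, Pmaip1 and Tnfrsf10b are known targets of p53.

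Promoter windows of 250 bases before to 50 bases after the start site were taken from RefSeq (build GRCm38.p6, while the processing notes name mm9). Windows were used for Bcl2a1d and Fas, while those of Pmaip1 and Tnfrsf10b were not used here. The Bcl2a1d window (chr9:88731801-88732100, minus strand) is shown beside that of its copy Bcl2a1a (chr9:88956670-88956969, plus strand). The Fas window (chr19:34290409-34290708, plus strand) is shown as that of another gene lower in the tumour-bearing mice. Pmaip1 was lower too, so direction does not account for this choice. Capitals mark matches to the AP-1 motif TGANTCA and to the interferon-gamma activated site TTCNNNGAA.
Bcl2a1d: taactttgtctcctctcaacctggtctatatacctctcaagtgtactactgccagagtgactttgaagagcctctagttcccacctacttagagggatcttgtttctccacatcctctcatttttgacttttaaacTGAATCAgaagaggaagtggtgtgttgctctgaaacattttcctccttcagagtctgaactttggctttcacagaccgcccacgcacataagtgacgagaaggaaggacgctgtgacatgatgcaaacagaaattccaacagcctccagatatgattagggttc
Bcl2a1a: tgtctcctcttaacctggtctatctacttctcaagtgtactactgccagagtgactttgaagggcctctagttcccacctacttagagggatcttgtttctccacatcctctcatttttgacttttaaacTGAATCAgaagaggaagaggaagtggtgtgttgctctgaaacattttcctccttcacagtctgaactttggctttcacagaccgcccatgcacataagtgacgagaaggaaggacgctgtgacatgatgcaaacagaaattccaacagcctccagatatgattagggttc
Fas: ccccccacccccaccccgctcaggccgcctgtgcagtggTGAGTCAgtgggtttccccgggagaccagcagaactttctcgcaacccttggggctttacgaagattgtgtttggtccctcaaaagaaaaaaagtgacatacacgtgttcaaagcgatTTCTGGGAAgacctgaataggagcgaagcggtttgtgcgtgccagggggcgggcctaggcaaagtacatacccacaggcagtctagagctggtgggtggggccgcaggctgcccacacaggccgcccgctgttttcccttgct

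The Bcl2a1d and Bcl2a1a windows aligned over 300 columns with 96.0% identity. Bcl2a1d also aligned with the window of Bcl2a1b over 256 columns at 96.5% identity and with that of Bcl2a1c over 190 columns at 93.2%. The windows of the Bcl2a1 copies thus resemble that of Bcl2a1d closely over the aligned stretches. For Bcl2a1b and Bcl2a1c these stretches covered only part of the window, so likeness around their own start sites is not shown. These windows lie mostly before the start site, so they do not show how alike the transcripts are. The array row is annotated to Bcl2a1d, but probe and transcript sequences were not used here. Signal from the other copies cannot be told apart from that of Bcl2a1d. On either strand, TGANTCA occurred once in the Bcl2a1d window, 114 bases before the start site, and once in the Fas window, 211 bases before it. It occurred in 7.81% of the 32851 windows of the same length in the RefSeq table. TTCNNNGAA occurred once in the Fas window, 93 bases before the start site, and in 8.30% of all windows. The NF-kappaB consensus (8.46% of all windows) and the C/EBP motif TTGCNNAA (10.8%) had no match in either window, and no matches overlapped. A match of letters describes the window and shows no binding.

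Values below are log2 expression as the authors deposited them, differences are tumour-bearing minus control, and their standard errors (SE) come from a limma fit over all rows. Between groups, Bcl2a1d, Fas and Pmaip1 were lower in the tumour-bearing mice and Tnfrsf10b was higher. The groups did not overlap for any of the 4 genes, a separation that 24.8% of all rows share. The authors' selection, which kept 3.05% of all rows, used this contrast, so nothing is read from that count. Because the cells are a bulk sort, fewer cells of a type and less RNA per cell cannot be told apart.

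**Figure D1:**
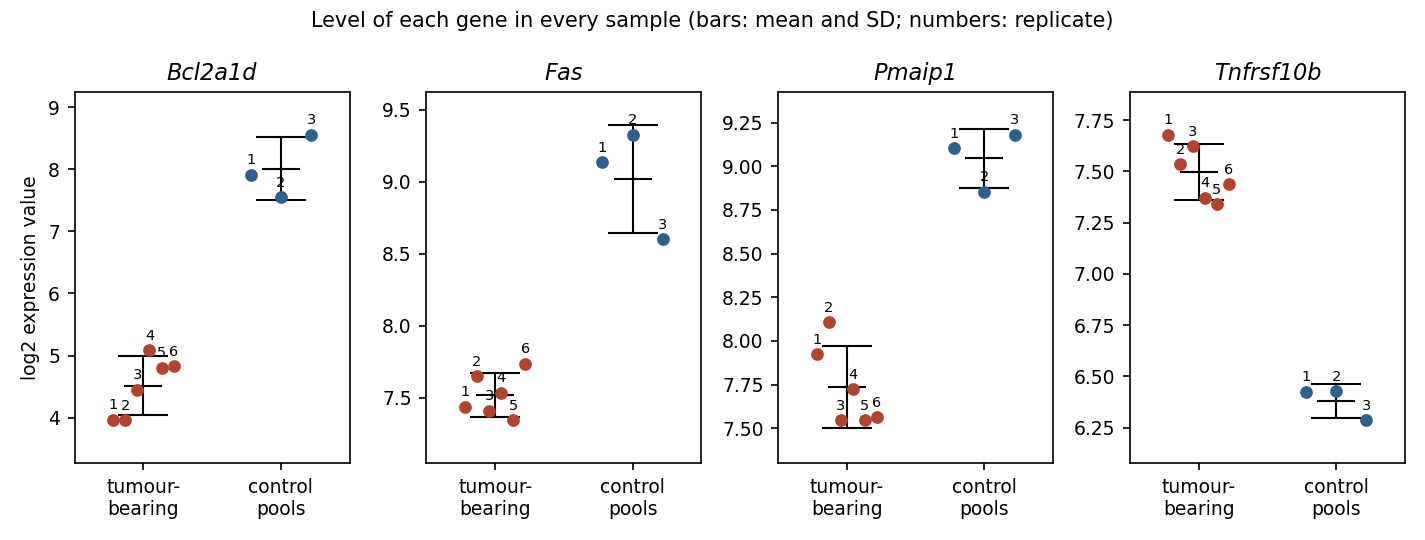
Log2 expression value of each gene (y axis, a separate scale per panel) in the 6 tumour-bearing mice and the 3 control pools (x axis), with group mean and SD. Bcl2a1d, Fas and Pmaip1 lie lower in every mouse than in any pool, and Tnfrsf10b lies higher.

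Bcl2a1d encodes a survival member of the Bcl2 family. Its level was 3.97, 3.96, 4.45, 5.09, 4.80 and 4.83 in mice 1 to 6 and 7.91, 7.55 and 8.55 in pools 1 to 3. Mice 1 and 2 were the lowest and mouse 4 the highest of the tumour-bearing group, and the highest mouse lay 2.46 below the lowest pool. The mean was 4.52 ± 0.47 (SD, n = 6 mice) against 8.01 ± 0.51 (SD, n = 3 pools), a difference of -3.49 ± 0.32 (SE), 11.2-fold. Among the 451 rows that the authors' table lists as lower, this difference ranked 7th in size. The tumour-bearing mean lay above only 21.0% of all row means in that group and below every array median (5.92 to 5.99), whereas the control mean lay above 86.1%. No background call was available, so the size of the difference is uncertain, and adding a pseudocount of 16 reduced it to -2.80. Among mice and among pools alike Bcl2a1d was variable: its SD exceeded that of 97.2% of all rows in the tumour-bearing group and of 97.5% in the controls.

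Fas encodes a death receptor whose ligand is presented by cytotoxic lymphocytes. It stood at 7.44, 7.65, 7.41, 7.54, 7.34 and 7.74 in mice 1 to 6, and at 9.14, 9.33 and 8.60 in pools 1 to 3. The mice lay close together, while pool 3 was lower than the other pools and 0.86 above the highest mouse. The mean was 7.52 ± 0.15 (SD, n = 6) against 9.02 ± 0.38 (SD, n = 3), and the difference was -1.50 ± 0.16 (SE), 2.83-fold. This ranked 195th of the 451 lower rows, near their median of -1.40. The SD among mice was 0.40 of that among pools, but this ratio rested on pool 3 and was 1.12 without it, when 2 pools remained (an alternative chosen after seeing the data). Each pool combines 3 mice, so an SD among pools and an SD among single mice are unlike measures. The pool SD exceeded that of 93.8% of all rows and the mouse SD that of 65.3%. Pool 3, the lowest for Fas, was the highest for Bcl2a1d.

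Pmaip1 encodes Noxa, a BH3-only protein that binds Mcl1 and A1. Its values were 7.92, 8.11, 7.55, 7.72, 7.55 and 7.56 in mice 1 to 6 and 9.10, 8.85 and 9.18 in pools 1 to 3. Mice 1 and 2 were the highest of their group, the reverse of their place for Bcl2a1d, and 0.75 separated mouse 2 from the lowest pool. The mean was 7.73 ± 0.24 (SD, n = 6) against 9.05 ± 0.17 (SD, n = 3), a difference of -1.31 ± 0.14 (SE), 2.48-fold. It ranked 262nd among the 451 lower rows.

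Tnfrsf10b encodes the only mouse TRAIL receptor that carries a death domain. It stood at 7.68, 7.54, 7.62, 7.37, 7.34 and 7.44 in mice 1 to 6 and at 6.43, 6.43 and 6.29 in pools 1 to 3. Both groups were narrow, and the lowest mouse lay 0.91 above the highest pool. The mean was 7.50 ± 0.14 (SD, n = 6) against 6.38 ± 0.08 (SD, n = 3), a difference of 1.12 ± 0.08 (SE), 2.17-fold. Among the 513 rows that the authors' table lists as higher it ranked 407th, below their median of 1.40, and of the 4 genes it lay nearest to the selection threshold. The smallest absolute difference in that table was 1.0003. A further 228 rows past 2-fold, with absolute differences up to 3.11, were not in it, so 2-fold was not the only criterion. With a pseudocount of 16 the difference was 0.99, under 2-fold. Its row is annotated through a GenBank entry that is not a RefSeq transcript, so the assignment to the gene is less certain than for the other 3. The death receptors Fas and Tnfrsf10b thus differed from the controls in opposite directions, as did Pmaip1 and Tnfrsf10b among these p53 targets.

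**Figure D2:**
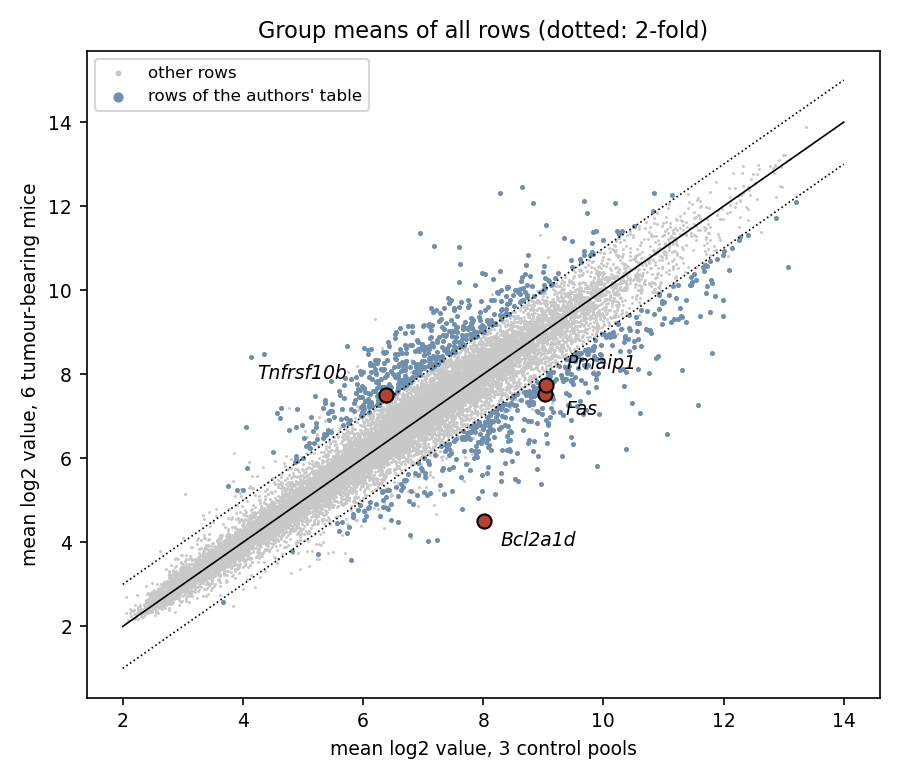
Mean log2 value of each row in the 3 control pools (x axis) against the 6 tumour-bearing mice (y axis), with the 964 rows of the authors' table in blue, the 4 genes in red and dotted lines at 2-fold. Bcl2a1d lies far below the lower line (4.52 against 8.01), Fas and Pmaip1 lie beyond it by less, and Tnfrsf10b lies just beyond the upper line.

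The surrounding pathway was taken as 108 genes in 10 lists by role, of which 10 had a named row, the 4 genes above included. In limma's fit over all rows (adjusted p under 0.05), 7 of these 10 were lower and 3 higher, where 8.83% of all rows were lower and 14.3% higher. Their median difference was -1.17. Each was selected as differing at least 2-fold, so the median over all rows, 0.02, is no fair comparison. The authors' table itself lists 451 rows as lower and 513 as higher. The names come only from these selected rows, so passing the threshold of adjusted p was close to fixed by the selection. The counts and the median are no evidence of a change or of its direction. Leaving out the 4 genes, 6 of 104 were named, 4 lower and 2 higher. Most of the pathway's genes, among them Mcl1, Bcl2, Bcl2l1, Bax, Bak1, Fadd, Cflar and all 10 caspases listed, had no named row and were not analysed here.

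Among ligands and receptors, Tnfsf14, which encodes the TNF-family ligand LIGHT, fell by 1.18 on the log2 scale, from 9.36 ± 0.18 (SD, n = 3) to 8.18 ± 0.10 (SD, n = 6). Tnfrsf1b, the TNF receptor without a death domain, was lower by -1.41 ± 0.09 (SE): its mice ranged from 9.28 to 9.65 with a median of 9.40, and the pools from 10.76 to 10.99. Of the 3 named receptors, 2 were thus lower and only Tnfrsf10b was higher. Downstream of the receptors, Tnfaip3, which encodes the ubiquitin-editing enzyme A20, was lower by -1.17 ± 0.04 (SE), with mice between 6.77 and 6.92 and pools between 8.01 and 8.08. Mlkl, the executor of necroptosis, a lytic death that follows receptor signalling when caspases are blocked, was higher by 1.12 ± 0.11 (SE), with mice between 7.39 and 7.91 and pools between 6.38 and 6.54.

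In the mitochondrial route, Bcl2l11 encodes Bim, a BH3-only protein that binds all survival members of the Bcl2 family. It was lower by -1.04 ± 0.07 (SE), with mice between 7.03 and 7.28 and pools between 8.06 and 8.34. The 2 named BH3-only genes of 12 and the only named survival gene of 9 were thus all lower. Birc5 was the only named inhibitor of apoptosis protein of 10 and was higher by 2.34 ± 0.13 (SE), 5.06-fold, from 6.81 ± 0.29 (SD, n = 3) to 9.15 ± 0.15 (SD, n = 6). It encodes survivin, which is also a subunit of the chromosomal passenger complex of mitosis. On the cell division list 26 of 28 genes were named and all were higher, where 14.3% of all rows were higher. These names come from the same selection, so that count is no evidence, and a link to Birc5 was not tested.

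**Figure D3:**
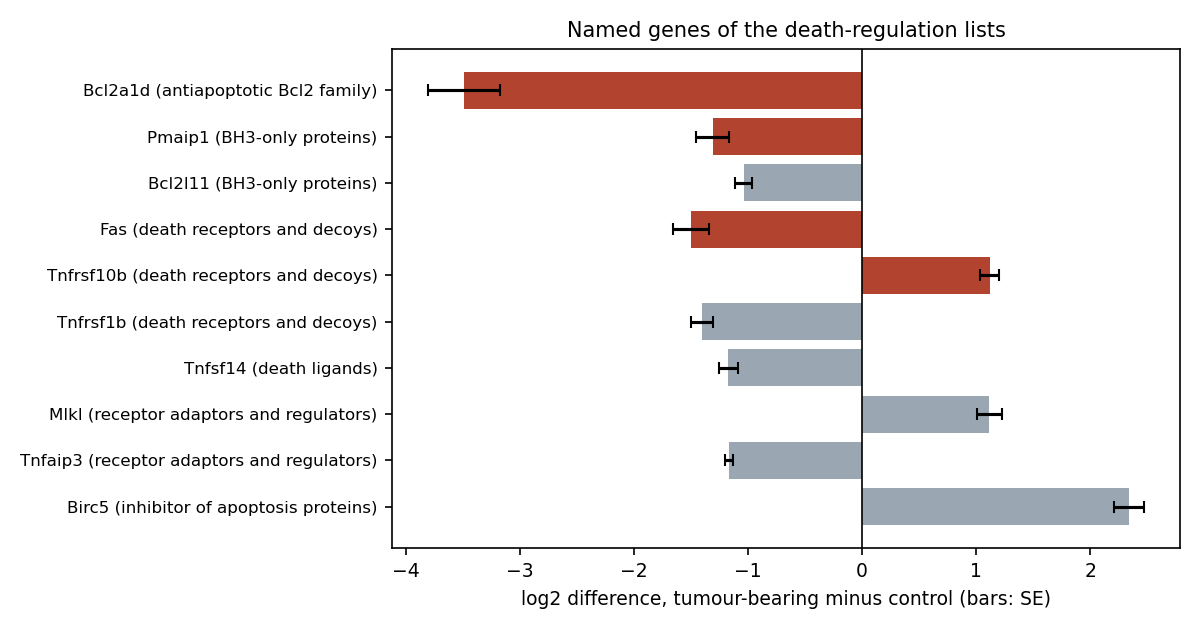
Log2 difference, tumour-bearing minus control, with SE (x axis), for the 10 named genes of the death-regulation lists (y axis, with role); red bars are Bcl2a1d, Pmaip1, Fas and Tnfrsf10b. The bars run from -3.49 for Bcl2a1d to 2.34 for Birc5, with 7 to the left of 0 and 3 to the right.

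Markers of the cell types within the sort moved with the same contrast. Of 13 neutrophil precursor markers 7 were named and all were higher, led by Ctsg (4.42 ± 0.22 SE) and Mpo (4.03 ± 0.26), and their mean log2 level was 11.28 to 11.87 in the mice and 8.16 to 8.72 in the pools. Of 16 mature neutrophil markers 5 were named and all were lower, including Cd101 and Il1b, at 8.94 to 9.83 against 11.39 to 11.61. On the list of 20 monocyte and macrophage markers, the 5 with a named row were lower, Adgre1 and Csf1r most, at 8.54 to 9.05 against 10.44 to 10.51. Of 14 dendritic cell and MHC class II genes 6 were named and lower, H2-Aa and Cd74 most, at 6.62 to 7.32 against 9.60 to 9.94. Immediate-early genes, 8 of 22 named and all lower, stood at 9.23 to 9.33 against 10.52 to 10.92. Of the other lists, B cells (Cd22 lower), eosinophils and basophils (Ms4a2 higher), erythroid cells (Tfrc higher) and platelets and megakaryocytes (Thbs1 lower) had 1 named marker each. T and NK cells and squamous epithelium had 0. A single gene cannot show a shift of a cell type. The defining genes of the sort, Itgam and Ly6g, were not analysed here. The part of cell composition in the differences of Bcl2a1d, Fas, Pmaip1 and Tnfrsf10b was not tested.

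Variation among the 6 tumour-bearing mice was not what the selection compared, and it was tested with 18 relations: the 6 pairs of the 4 genes, and each gene against the mean log2 level of the named cell division genes, immediate-early genes, and monocyte, dendritic and MHC class II genes. After Benjamini-Hochberg adjustment 0 relations passed 0.05 in exact permutation tests of Pearson's r or of Spearman's rho. At an unadjusted p under 0.05 there was 1 by Pearson and 0 by Spearman. The smallest p that 6 mice allow is 0.0014 for r and 0.0028 for rho, so a single relation could reach an adjusted p of 0.025 by r but no lower than 0.05 by rho. That 1 relation was between Bcl2a1d and cell division, with r = -0.89 (exact permutation p = 0.025, two-sided, adjusted 0.369) and rho = -0.77 (exact permutation p = 0.103, adjusted 0.525). The cell division level fell in the order of replicate number, at 9.63, 9.51, 9.36, 9.29, 9.27 and 9.18 in mice 1 to 6. Relations of any gene with this level therefore cannot be told apart from relations with that order. Mice 1 and 2 had the highest cell division levels and the lowest Bcl2a1d. Without both of these mice r was -0.46, but leaving out the extremes narrows the range and by itself tends to weaken r. Leaving out 1 mouse at a time gave r from -0.96 (without mouse 4) to -0.85 (without mouse 1). Over the deviations of all 9 samples from their group means r was -0.28. Bcl2a1d lay below every array median (5.92 to 5.99) in all 6 mice, and no background call was available. Its variation among them, and so each of its relations, is uncertain for that reason too.

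Pmaip1 and Tnfrsf10b leaned the other way with cell division among the mice, at r = 0.79 (exact permutation p = 0.0708, adjusted 0.369; rho = 0.66, exact permutation p = 0.175, adjusted 0.525) and r = 0.77 (exact permutation p = 0.0819, adjusted 0.369; rho = 0.77, exact permutation p = 0.103, adjusted 0.525). Without the 2 mice farthest from the median of each gene these became 0.06 and 0.54. Bcl2a1d and Tnfrsf10b had r = -0.81 (exact permutation p = 0.075, adjusted 0.369; rho = -0.66, exact permutation p = 0.175, adjusted 0.525), and r = -0.84 without mice 1 and 2. Fas showed an r of 0.01 with Bcl2a1d (exact permutation p = 0.989, adjusted 0.989; rho = 0.09, exact permutation p = 0.919, adjusted 0.919) and 0.29 with Pmaip1 (exact permutation p = 0.579, adjusted 0.779; rho = 0.60, exact permutation p = 0.242, adjusted 0.582), becoming 0.35 and 0.48 without the 2 farthest mice.

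With the monocyte, dendritic and MHC class II level, which was highest in mouse 6 (8.11) and lowest in mouse 3 (7.51), Bcl2a1d had r = 0.67 (exact permutation p = 0.15, adjusted 0.403; rho = 0.71, exact permutation p = 0.136, adjusted 0.525). Fas had its largest relation there, r = 0.65 (exact permutation p = 0.161, adjusted 0.403; rho = 0.54, exact permutation p = 0.297, adjusted 0.582), and Tnfrsf10b had r = -0.64 (exact permutation p = 0.179, adjusted 0.403; rho = -0.71, exact permutation p = 0.136, adjusted 0.525). Without the 2 farthest mice these were 0.66, 0.52 and -0.81, and over all alternatives they ranged from 0.59 to 0.75, from 0.18 to 0.86 and from -0.83 to -0.54. Pmaip1 had r = -0.34 with that level (exact permutation p = 0.54, adjusted 0.779), which was 0.29 without mice 1 and 2. Bcl2a1d and Pmaip1 had r = -0.75 (exact permutation p = 0.121, adjusted 0.403), which turned to 0.79 without mice 1 and 2. With the immediate-early genes the 4 genes had r from -0.44 to 0.24. None of the 18 relations passed the adjustment, and the number of mice limits what could be detected.

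**Figure D4:**
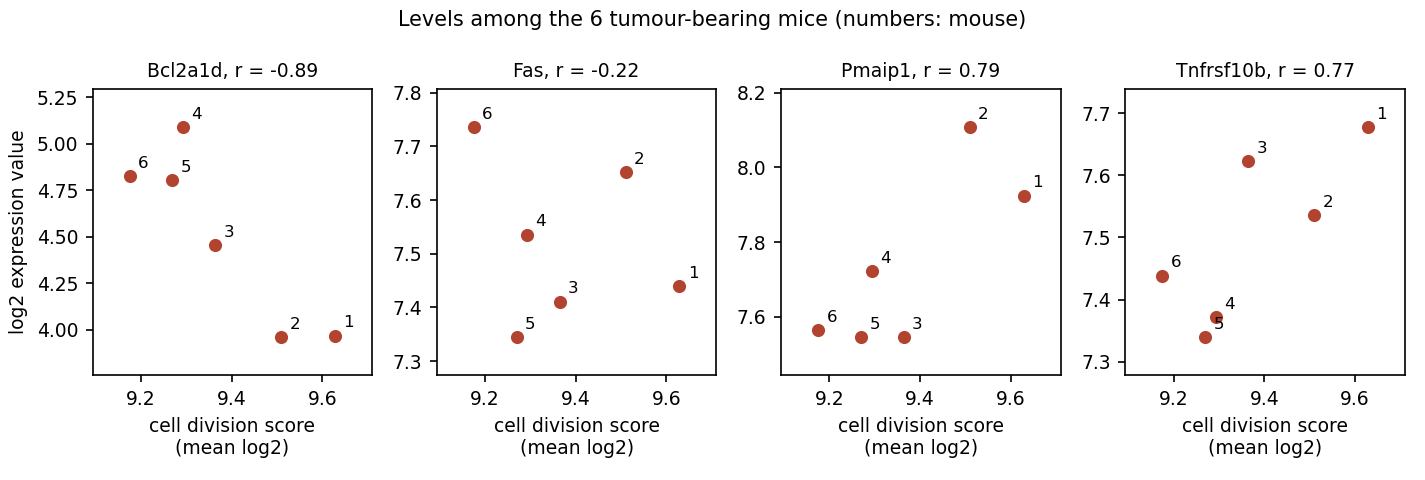
Log2 expression value of each gene (y axis) against the mean log2 level of the 26 named cell division genes (x axis) in the 6 tumour-bearing mice, numbered. Mice 1 and 2 lie at the right of every panel, lowest for Bcl2a1d and highest for Pmaip1, and Pearson's r runs from -0.89 for Bcl2a1d to 0.79 for Pmaip1.

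The patterns most like each gene were sought among 799 other named genes, by Pearson's r of the deviations from the group means over 9 samples. This is a description in which all points share their arrays. A high r comes in part from the search itself, so no relation is read from the 3 highest patterns given for each gene. For Bcl2a1d these were Ifi205 (r = 0.87), an interferon-inducible gene of the p200 family with close paralogs, Tgm2 (0.83), which encodes transglutaminase 2, and Prkab2 (0.83), a subunit of the energy-sensing kinase AMPK. All 3 were lower in the tumour-bearing mice, by -2.75, -2.01 and -1.17. For Fas they were Maml3 (0.83), a coactivator of Notch signalling, the phosphatidate phosphatase gene Lpin2 (0.81) and Syt11 (0.81), a synaptotagmin gene, which were also lower, by -1.32, -1.12 and -1.59.

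For Pmaip1 the nearest genes ran against it between the groups while following it within them. Mcm3 (r = 0.95), a subunit of the replicative helicase, stood at 9.04, 8.97, 8.42, 8.54, 8.43 and 8.41 in mice 1 to 6 and at 6.82, 6.45 and 6.88 in the pools. As with Pmaip1, mice 1 and 2 were the highest of their group and pool 2 the lowest of its own, yet Mcm3 was higher in the tumour-bearing mice by 1.92 ± 0.18 (SE). The lactate transporter gene Slc16a1 (0.94) and the centrosome gene Alms1 (0.93) were likewise higher, by 1.05 and 1.04. For Tnfrsf10b the nearest were Arhgap11a (0.89), a RhoGAP of dividing cells, the nucleoside diphosphate kinase family gene Nme6 (0.86) and Ubr7 (0.85), a member of the N-recognin family, all higher, by 1.10, 1.43 and 1.04.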

How the data were processed

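The authors deposited normalized log2 values for each array row in each of the 9 samples. Affymetrix Power Tools, RMA and PLIER, with the build mm9, appear in the submitters' processing notes; the sources used here give no versions and do not say which method made the final values. Values ran from 1.95 to 13.95. The number of arrays limits the precision. Titles gave each sample's group and replicate number.

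Each of the authors' 964 selected rows was found once in the full table, by identity of its 9 values at 5 decimals, and the remaining 30684 rows have no name here. Names were updated through RefSeq (717 by accession, 114 by symbol, 52 by synonym, 81 kept), and the row of highest mean stood for a gene. The 4 genes and all lists were chosen with earlier results of these data known. All rows were fitted with limma 3.58.1 in R 4.3.3 (lmFit, eBayes, two-sided, Benjamini-Hochberg over 31648 rows, threshold 0.05); this fit was tested on simulated data. Relations among mice used exact permutation tests over all pairings of 6 mice, in Python 3.11.15. The text names the 4 genes, every named pathway gene, the 3 nearest patterns of each gene (clones and predicted genes left out), Mcm3 among them, and up to 2 genes per marker list. Promoter windows were aligned locally with Biopython 1.88. Alternatives were other scalings, a pseudocount of 16, a filter on dim rows, other tests, array weights, leaving out each sample and the replicate number as a block. Deviations from the group means correlated at 0.09, 0.01 and 0.02 between samples of the same number, too low to treat them as pairs.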

Additional observations from a re-analysis of the deposited data

How the results depend on the processing

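The differences of Bcl2a1d, Fas, Pmaip1 and Tnfrsf10b kept their direction under all alternatives tried. Leaving out 1 sample gave -3.72 to -3.22 for Bcl2a1d, -1.71 to -1.35 for Fas, -1.41 to -1.24 for Pmaip1 and 1.07 to 1.15 for Tnfrsf10b; the outer values for Fas came without control pool 3 and pool 2. A pseudocount of 16, which by its construction damps dim rows, moved Bcl2a1d to -2.80 and Tnfrsf10b to 0.986. Each gene had 1 named row, so averaging rows gave no other value. With the replicate block on 3 mice and 3 pools the differences were -3.88, -1.52, -1.19 and 1.23. The pathway count of 10 became 9 with the block, with a Welch test and when dim rows were left out, and was 10 otherwise. The gene lost was Pmaip1 with the block and Fas with the Welch test, each missing the threshold of adjusted p. Bcl2a1d was among the dim rows left out and was not tested there. The 10 genes were selected on this contrast, so the count says little of stability. Over all rows 7333 passed; the block gave 4289 (2815 higher, 1474 lower) and Welch 3812 (2478 higher, 1334 lower), and the cause was not tested. Of 216 values of the 18 relations under alternatives 28 changed sign, including Bcl2a1d with Pmaip1 (-0.91 to 0.79). The count of 0 relations past the threshold did not move, which says little of stability. With 5 mice a single relation cannot go below an adjusted p of 0.15, and by rho with 6 mice not below 0.05. The other scalings and the pseudocount kept all 6 mice. There a single relation could reach 0.025 by r, and 0 passed.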

Other observations

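In all, 41 items were examined for 1 tumour-bearing mouse far from the other 5 (by Dixon's ratio of gap to range). They were the 4 genes, the other named pathway genes, the nearest patterns of the 4 genes and the 3 list means. Of each marker or score list, only the up to 2 named genes of largest difference were included, and its other named genes were not examined. Of these 0 stood out, where chance gives about 2.05.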
